A study of Mus musculus with 7 samples.

Results

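The type I interferon response genes described here are 29 mouse genes (Ddx58, Ifih1, Dhx58, Zbp1, Oas1a, Oas2, Oas3, Oasl1, Oasl2, Ifit1, Ifit2, Ifit3, Isg15, Rsad2, Cmpk2, Mx1, Mx2, Bst2, Ifi44, Ifi27l2a, Xaf1, Irf7, Irf9, Stat2, Usp18, Trim30a, Parp14, Ifi35 and Rtp4). They were chosen by name as known targets of the pathway, with earlier results of these data known. Each was matched to a row of the same name among the 50435 gene rows of the expression table. All 29 had a mean of at least 1 RPM (the depth-scaled read count of a library, which takes no account of gene length) over the 7 libraries and entered the test, as did 14100 genes in all.

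Every mouse in the study was a wild-type recipient that had been irradiated and given Zbtb46dtr marrow. In such marrow Zbtb46, a gene of classical dendritic cells, drives the receptor for diphtheria toxin. The receptor was therefore present only in cells derived from the donor marrow, in both groups. After 8 weeks, mice of the DT group received 200 ng of diphtheria toxin in 100 ul of PBS and mice of the PBS group received 100 ul of PBS alone, and marrow was collected 1 day later. RNA came from 4 PBS and 3 DT samples of marrow cells sorted as sinusoidal endothelial cells (CD31+ Sca1-, without CD45, Ter119, Gr1 or CD11b). The labels call the samples biological replicates without naming the animals behind each, so p-values measure the spread between these samples. Strain, age, sex and any pooling of animals were not given in the sources used here. Means below carry their SD (n = 4 PBS and n = 3 DT libraries).

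Type I interferons are secreted proteins that bind a receptor made of Ifnar1 and Ifnar2. The kinases Jak1 and Tyk2 then phosphorylate transcription factors, Stat2 among them, which enter the nucleus with Irf9 and bind interferon-stimulated response elements in promoters. The genes so induced include cytosolic sensors of viral nucleic acids, proteins that block viral replication, and factors that amplify or end the signal. In bone marrow, interferon acts on blood cells, their progenitors and the vessel wall.

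All 29 members were above 3 estimated reads in every library. Libraries were made from 1 ng of RNA with 14 PCR cycles, and how many molecules the reads stand for was not measured. The most frequent low value of each library, taken as 1 read, gave 33200000 (PBS replicate 1) to 51200000 (DT replicate 3) reads per library. On this scale 3 reads correspond to 0.0585 to 0.0904 RPM, a limit that covers counting error only. The lowest estimate for any member was 14 reads, for Mx1 in PBS replicate 2. The sorted samples carried little RNA of defining endothelial genes. A list of 12 such genes (Flt1, Flt4, Kdr, Cdh5, Cldn5, Esam, Tie1, Tek, Stab2, Plvap, Emcn and Robo4) summed to 3.35 to 12.0 RPM in PBS and 9.85 to 16.7 RPM in DT, and 8 of the 12 averaged under 1 RPM. The neutrophil markers (12 of 12 higher in DT) summed to 1973 to 4492 RPM in PBS and 58184 to 61975 RPM in DT, and the monocyte and macrophage markers (10 of 10 higher) to 423 to 911 and 7165 to 8966 RPM. T and NK cell markers rose in 8 of 8, classical dendritic markers in 3 of 5 tested, B-lineage markers fell in 6 of 8, and erythroid markers fell in 7 of 10 and rose in 3. Zbtb46, on the classical dendritic list and named after its values were seen, differed the other way but missed the threshold. It was at 1.54, 17.5, 10.4 and 7.45 RPM in PBS and at 0.0248, 3.12 and 1.56 RPM in DT (limma adjusted p = 0.0556). Some markers that rose averaged under 1 RPM in PBS and met the filter through their DT values. The values below therefore belong to the sorted samples as a whole. Their part in the members' changes was not tested, and in bulk RNA more cells of a type and more RNA per cell cannot be told apart.

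Of the 29 interferon response genes, 15 rose after DT and 0 fell (limma, Benjamini-Hochberg adjusted p under 0.05 over all tested genes), where 13.4% of all tested genes rose and 18.6% fell. At an unadjusted p under 0.05, 18 members were higher and 0 lower, and the share of all tested genes at that cut was not counted. Rises were found in 7 of 9 sensors, 5 of 12 effectors and 3 of 8 regulators, and the difference between roles was not tested. Under median-ratio scaling the counts were 7, 8 and 5. The median log2 change of the members was 0.88 against -0.23 for all tested genes, both on the log2(RPM + 1) scale, which understates changes of low genes. Every DT library lay above every PBS library for 15 of 29 members, against 16.1% of all tested genes. Those 15 differ from the 15 that rose by a pair of genes, since Ddx58 rose with overlapping groups and Irf9 did not overlap but missed the threshold. Ratios of group means ran from 1.81 to 11.2 among the genes that rose, and 7 members had a ratio of at least 4.

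**Figure D1:**
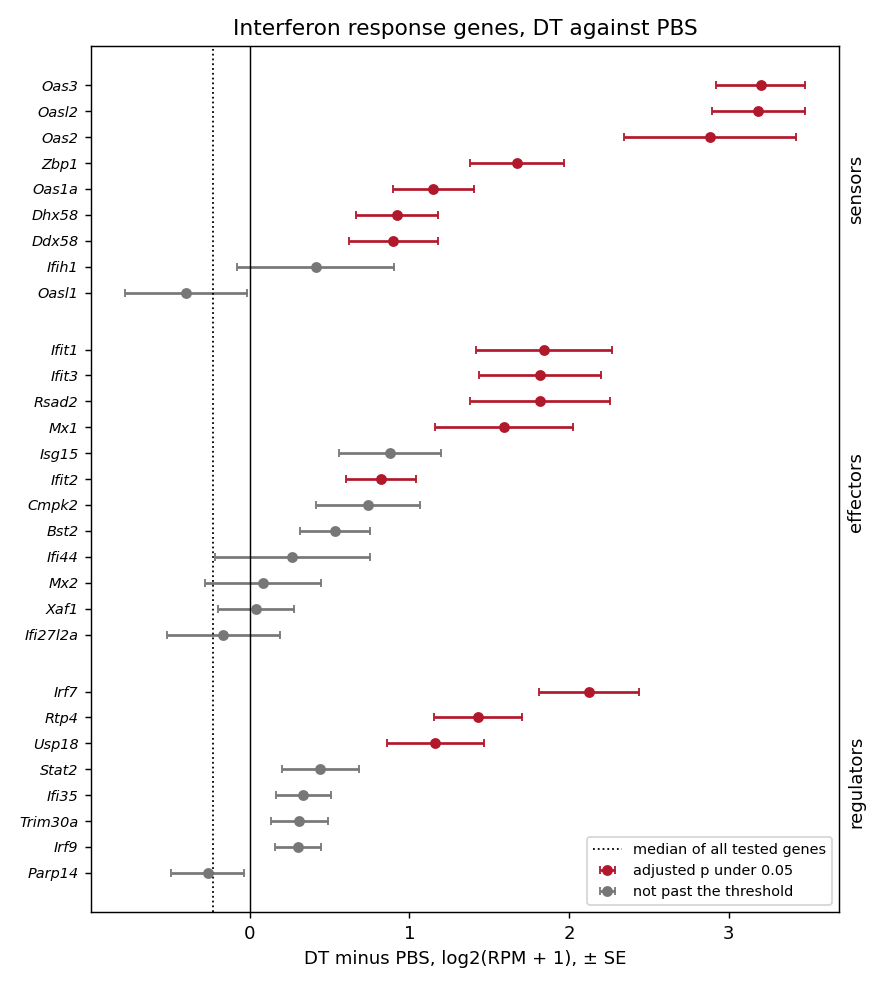
Change of each member between DT and PBS on the log2(RPM + 1) scale (x axis, limma estimate with its SE, 4 PBS and 3 DT libraries), sorted by role and size (y axis). Red points passed an adjusted p of 0.05; Oas3 (3.20) and Oasl2 (3.18) lie farthest right, and the dotted line marks the median of all tested genes (-0.23).

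The count fell whichever DT library was left out, to 10, 12 and 8 when DT replicates 1, 2 and 3 were dropped in turn. Rises among all tested genes went from 1894 to 1383 without DT replicate 3. In that fit Ddx58, Dhx58, Ifit1, Ifit2, Rsad2, Mx1 and Usp18 missed the threshold, with log2 changes of 0.73, 0.71, 1.49, 0.82, 1.52, 1.53 and 0.86 against 0.90, 0.92, 1.84, 0.82, 1.82, 1.59 and 1.16 with all libraries. The estimates for Ifit2 and Mx1 hardly moved, and both genes also missed without DT replicate 1 or 2. A core of 8 members (Zbp1, Oas1a, Oas2, Oas3, Oasl2, Ifit3, Irf7 and Rtp4) rose under each of the 20 other settings tried. The share of all tested genes that did so was not counted. Under median-ratio scaling, where the median of all genes was -0.01, 20 members rose, with Isg15, Cmpk2, Bst2, Irf9 and Ifi35 added. Rises made up 41.9% of all calls as reported, 65.5% under that scaling and 62.3% under TMM scaling.

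Many members carry the interferon-stimulated response element close to their start, and the stretches below are shown because they hold it in genes that rose and in genes that did not. RefSeq promoter windows (GRCm38.p6, 250 bases before to 50 after the start) were found for 20 of the 29 genes. The element was searched on both strands as GAAA, any 2 bases, then GAAA, so that neighbouring copies may overlap. It was found for 11 of these 20 genes (55.0%), against 3.99% of 27025 genes with a window and 6.54% of the 1361 genes with a window that rose in DT. Among members it was present in 6 of 9 that rose and 5 of 11 that did not. The shorter motif TTCNNNGAA, which can overlap the element, was found for 4 of the 20 members and for 9.55% of all genes. A match describes letters in a window and is not evidence of binding. No window was found for Zbp1, Oas2, Dhx58, Mx1, Mx2, Ifi27l2a, Usp18, Rtp4 and Parp14.

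Capitals mark the element in each stretch, read 5′ to 3′ on the strand of the gene and ending before its start. The first 5 genes rose and the last 3 did not pass the threshold.
Oas3, chr5:120777700-120777759, minus strand: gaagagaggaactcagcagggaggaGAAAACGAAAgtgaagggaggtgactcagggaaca
Oas1a, chr5:120907526-120907570, minus strand: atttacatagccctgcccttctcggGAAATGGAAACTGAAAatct
Ifit1, chr19:34640760-34640838, plus strand: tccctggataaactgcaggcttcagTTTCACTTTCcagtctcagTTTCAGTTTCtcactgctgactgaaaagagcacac
Ifit3, chr19:34583348-34583441, plus strand: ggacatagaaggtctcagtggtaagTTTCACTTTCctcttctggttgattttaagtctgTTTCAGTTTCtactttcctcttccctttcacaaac
Rsad2, chr12:26456538-26456597, minus strand: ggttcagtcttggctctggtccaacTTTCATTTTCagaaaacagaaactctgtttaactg
Isg15, chr4:156200850-156200921, minus strand: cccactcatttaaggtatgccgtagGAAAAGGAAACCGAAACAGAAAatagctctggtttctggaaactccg
Bst2, chr8:71537562-71537627, minus strand: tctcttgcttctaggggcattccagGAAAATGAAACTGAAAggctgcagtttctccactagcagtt
Stat2, chr10:128270251-128270310, plus strand: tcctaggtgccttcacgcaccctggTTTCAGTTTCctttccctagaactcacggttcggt

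Ifit1 and Ifit3 each hold a pair of separate copies, which begin 104 and 85 bases before the start in Ifit1 and 156 and 122 bases before it in Ifit3. Isg15 holds 3 overlapping copies between 78 and 66 bases before its start, and its level is given below with the effectors. In Oas1a the copies begin 20 and 14 bases before the start, and in Stat2 the copy begins 222 bases before it.

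Among the sensors, the oligoadenylate synthetase family held the 3 highest ratios (Oas3, Oasl2 and Oas2) and also the lowest (Oasl1). Most members of the family bind foreign RNA and make a short signal molecule from ATP. Oas3, which prefers long RNA, was at 3.74, 3.76, 2.64 and 5.69 RPM in PBS replicates 1 to 4 and at 39.7, 36.4 and 56.6 RPM in DT replicates 1 to 3. All DT libraries were far above all PBS libraries, a ratio of means of 11.2 (limma, log2 change 3.20 ± 0.28 SE, adjusted p = 3.64e-05). Oasl2, a family member that also carries ubiquitin-like domains, was at 8.16, 3.83, 4.38 and 3.73 RPM in PBS and at 40.2, 55.7 and 61.2 RPM in DT. Its groups did not overlap either, although PBS replicate 1 stood above the other PBS libraries, and the ratio was 10.4 (limma, log2 change 3.18 ± 0.29 SE, adjusted p = 4.83e-05).

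Oas2 was at 7.95, 0.562, 1.71 and 3.13 RPM in PBS and at 18.7, 21.2 and 39.5 RPM in DT. The PBS libraries spread widely, with PBS replicate 1 highest, and still lay below every DT library (ratio 7.93, limma adjusted p = 0.00343). Oas1a rose less, from 11.9, 15.2, 16.7 and 23.3 RPM to 30.0, 38.2 and 46.0 RPM (ratio 2.27, limma adjusted p = 0.0075). Part of its reads may be shared with its related copy Oas1g, which averaged 1.5 ± 1.52 RPM in PBS and 7.58 ± 1.66 RPM in DT.

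Oasl1, which in mice restrains production of Irf7 protein, did not follow its relatives. It was at 16.2, 22.4, 15.3 and 12.1 RPM in PBS and at 5.81, 13.7 and 21.0 RPM in DT, so the groups overlapped and the DT libraries differed more from each other than the group means did (log2 change -0.40 ± 0.38 SE, limma adjusted p = 0.456). Its sign turned without DT replicate 1 (0.07).

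Zbp1, a sensor of left-handed nucleic acid helices that can trigger cell death, was at 3.19, 5.78, 4.19 and 4.94 RPM in PBS and at 12.9, 14.8 and 22.8 RPM in DT. The PBS libraries were close together and all lay below the DT libraries (ratio 3.72, limma, log2 change 1.67 ± 0.29 SE, adjusted p = 0.00237).

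The helicases that detect viral RNA in the cytosol changed less. Dhx58, which encodes LGP2, was at 13.6, 17.6, 11.5 and 17.7 RPM in PBS and at 29.7, 21.0 and 39.4 RPM in DT (ratio 1.99, limma adjusted p = 0.0223). Ddx58, which encodes RIG-I, was at 40.2, 22.4, 22.1 and 17.4 RPM in PBS and at 38.5, 43.4 and 58.9 RPM in DT (ratio 1.84, limma adjusted p = 0.0330). PBS replicate 1 reached the DT range for Ddx58 and was not the highest PBS library for Dhx58. Without DT replicate 3 both missed the threshold, with adjusted p of 0.139 for Ddx58 and 0.114 for Dhx58. With the replicate number as a block the adjusted p was 0.112 for Ddx58 and 0.0610 for Dhx58. DT has no replicate 4, so the block takes PBS replicate 4 out of the comparison. Ddx58 also missed without PBS replicate 2 (0.0613), PBS replicate 3 (0.0730), PBS replicate 4 (0.0800), DT replicate 1 (0.0541) or DT replicate 2 (0.0779), and Dhx58 without PBS replicate 3 (0.0543) or DT replicate 1 (0.0741).

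Ifih1, which encodes the long-RNA sensor MDA5, was at 3.58, 19.6, 9.78 and 4.48 RPM in PBS and at 10.8, 7.68 and 13.9 RPM in DT. Its PBS libraries covered the whole DT range (log2 change 0.42 ± 0.49 SE, limma adjusted p = 0.546).

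**Figure D2:**
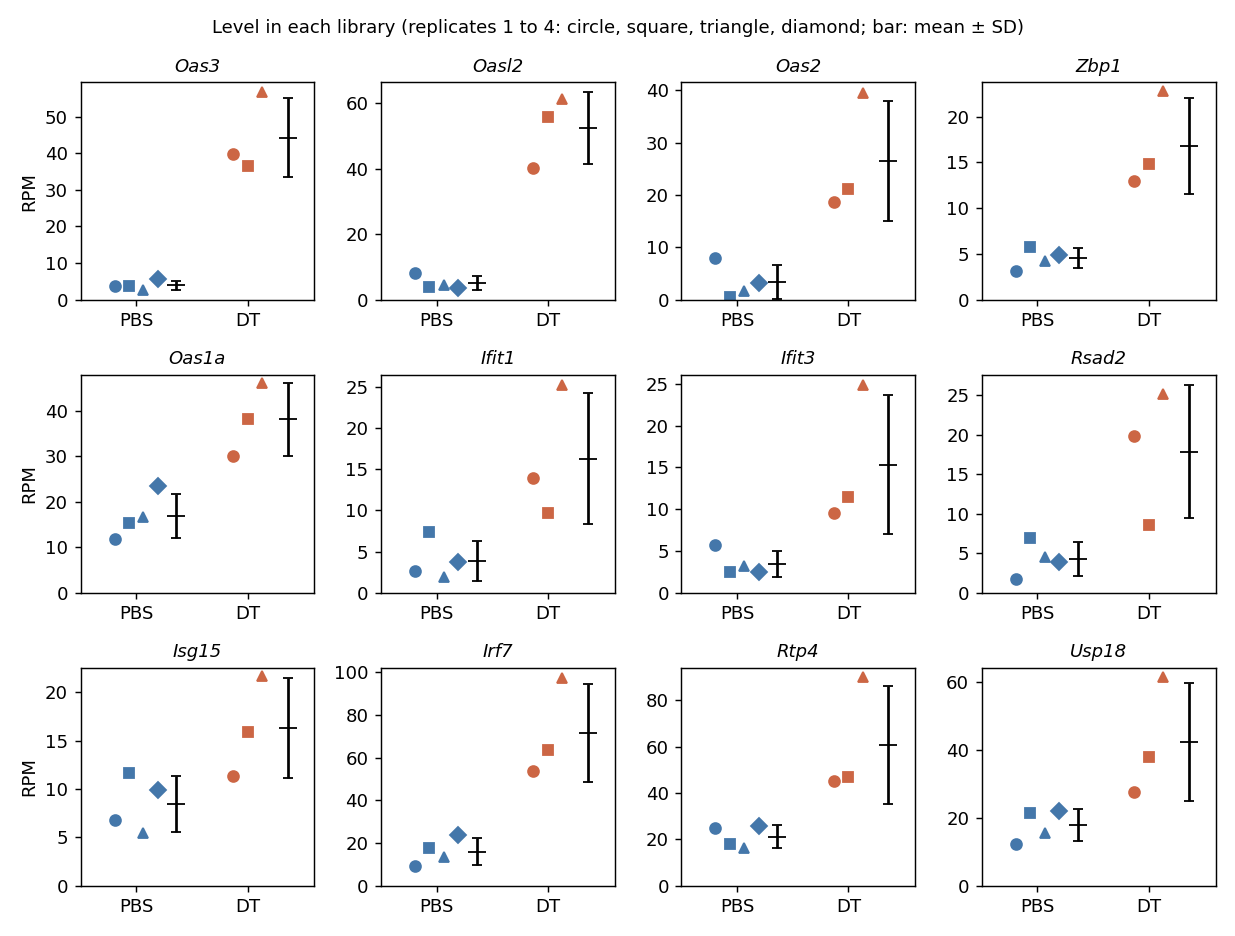
Level in RPM (y axis, from 0) of 12 members in each PBS and DT library (x axis), with the mean ± SD of each group in black (n = 4 PBS and 3 DT). DT replicate 3 (triangle) is the highest library in all 12 panels, at 97.4 RPM for Irf7 and 21.7 RPM for Isg15, and Isg15 is the panel where the groups overlap.

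Among the effectors, Ifit1, Ifit3, Rsad2, Mx1 and Ifit2 rose. Of the Ifit family, Ifit1 encodes a protein that binds viral RNA lacking the host's cap marks and blocks its translation. Ifit1 was at 2.60, 7.34, 1.89 and 3.72 RPM in PBS and at 13.9, 9.73 and 25.2 RPM in DT (ratio 4.19, limma, log2 change 1.84 ± 0.43 SE, adjusted p = 0.0098). Ifit3 was at 5.70, 2.43, 3.14 and 2.5 RPM in PBS and at 9.58, 11.5 and 24.9 RPM in DT (ratio 4.45, limma adjusted p = 0.0063). For both genes DT replicate 3 held the highest value, and without it Ifit1 had an adjusted p of 0.0529. The related copy Ifit3b, whose reads may be shared with Ifit3, averaged 0.782 ± 0.863 RPM in PBS and 9.15 ± 5.49 RPM in DT.

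Ifit2, a family member that promotes apoptosis, had a smaller and more even difference. It was at 12.1, 13.5, 9.17 and 14.4 RPM in PBS and at 20.7, 23.9 and 22.2 RPM in DT (ratio 1.81, limma adjusted p = 0.0180). The 3 DT libraries were close to each other and above all PBS libraries. Leaving out DT replicate 1, 2 or 3 gave adjusted p of 0.0504, 0.0735 and 0.0699.

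Rsad2, which encodes viperin, an enzyme that makes a chain-terminating nucleotide, was at 1.72, 6.95, 4.51 and 3.93 RPM in PBS and at 19.8, 8.61 and 25.1 RPM in DT (ratio 4.17, limma adjusted p = 0.0120). DT replicate 2 lay just above the highest PBS library, and the adjusted p was 0.0522 without DT replicate 1 and 0.0626 without DT replicate 3. Its neighbour Cmpk2, a kinase that supplies viperin's substrate, was at 9.61, 26.9, 18.3 and 20.4 RPM in PBS and at 33.5, 36.6 and 22.5 RPM in DT. The groups overlapped because DT replicate 3 was below PBS replicate 2 (log2 change 0.74 ± 0.32 SE, limma adjusted p = 0.106).

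Mx1, a GTPase that blocks influenza-like viruses, was at 1.78, 0.345, 4.45 and 2.05 RPM in PBS and at 7.61, 6.68 and 8.14 RPM in DT. The DT libraries were close together above a wide PBS range (ratio 3.47, limma adjusted p = 0.0197). Without DT replicate 1, 2 or 3 its adjusted p was 0.0632, 0.0522 and 0.0719. Mx2, its paralog, was at 4.82, 2.36, 3.88 and 1.91 RPM in PBS and at 3.08, 2.16 and 5.28 RPM in DT, with fully overlapping groups (limma adjusted p = 0.880).

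Isg15 encodes a ubiquitin-like protein that is attached to other proteins during the response. It was at 6.81, 11.7, 5.40 and 9.93 RPM in PBS and at 11.3, 15.9 and 21.7 RPM in DT. DT replicate 1 fell between PBS replicates 4 and 2, and the difference missed the threshold (log2 change 0.88 ± 0.32 SE, limma adjusted p = 0.0597). Isg15 did pass under other scalings, at 0.0420 with quantile, 0.0257 with median-ratio and 0.0297 with TMM scaling, and also with sample weights (0.0312) or without PBS replicate 2 (0.0380). Bst2, which encodes tetherin, a protein that holds budding virus at the cell surface, was at 22.9, 35.8, 25 and 27.3 RPM in PBS and at 30.6, 43.4 and 48.3 RPM in DT (limma adjusted p = 0.0897). DT replicate 1 was below PBS replicate 2, and without PBS replicate 2 the adjusted p of Bst2 was 0.0407.

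The other effectors overlapped between groups. Ifi27l2a, a small mitochondrial protein gene and the most abundant member per kilobase, was at 179.8, 69.2, 56.7 and 101 RPM in PBS and at 69.0, 71.7 and 111 RPM in DT (limma adjusted p = 0.751). PBS replicate 1 was the highest of all 7 libraries, and without it the sign of the log2 difference turned from -0.17 to 0.15. Ifi44, an interferon-induced cytosolic protein gene, was at 0.753, 5.52, 4.45 and 6.86 RPM in PBS and at 5.47, 4.52 and 4.10 RPM in DT (limma adjusted p = 0.700). Xaf1, which opposes an inhibitor of apoptosis, averaged 24.4 ± 3.96 RPM in PBS and 25.6 ± 7.70 RPM in DT, with a limma adjusted p of 0.910.

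Among the regulators, Irf7, Rtp4 and Usp18 rose. Irf7, the transcription factor that drives interferon genes themselves and amplifies the response, was at 9.28, 17.6, 13.3 and 23.7 RPM in PBS and at 53.8, 63.7 and 97.4 RPM in DT. The lowest DT library was above the highest PBS library by a wide margin, with a ratio of 4.48 (limma, log2 change 2.13 ± 0.31 SE, adjusted p = 0.000906). Exons of Irf7 overlap exons of Phrf1 on the opposite strand, and strand use in counting is not given in the sources used here. Phrf1 averaged 40.7 ± 12.5 RPM in PBS and 34.0 ± 3.15 RPM in DT.

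Rtp4, which binds a kinase of the induction pathway and dampens it, was at 24.9, 17.9, 16.1 and 25.8 RPM in PBS and at 45.2, 46.8 and 90.1 RPM in DT (ratio 2.87, limma adjusted p = 0.00417). DT replicate 3 stood well above the other DT libraries. Usp18, which removes Isg15 from proteins and blocks signalling at the receptor, was at 12.2, 21.4, 15.5 and 22.1 RPM in PBS and at 27.4, 37.9 and 61.5 RPM in DT (ratio 2.37, limma adjusted p = 0.0163). Groups did not overlap for either gene, but without DT replicate 3 Usp18 had an adjusted p of 0.0801.

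Irf9 and Stat2, which act together in the transcription complex, showed small differences that missed the threshold. Irf9 was at 71.5, 78.4, 65.2 and 75.6 RPM in PBS and at 82.5, 85.8 and 102 RPM in DT, without overlap (log2 change 0.30 ± 0.14 SE, limma adjusted p = 0.130). Under median-ratio scaling Irf9 passed at 0.0176, and under TMM scaling at 0.0233. Stat2 was at 30.0, 21.4, 45.2 and 26.5 RPM in PBS and at 38.8, 46.3 and 37.5 RPM in DT (limma adjusted p = 0.186), where PBS replicate 3 lay inside the DT range. Without PBS replicate 3, Stat2 had an adjusted p of 0.0458.

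Trim30a, a mouse gene that restrains inflammatory signalling, was at 115, 78.7, 71.5 and 76.0 RPM in PBS and at 98.6, 105 and 109 RPM in DT (limma adjusted p = 0.207). PBS replicate 1 was above all DT libraries while the other PBS libraries were below them, and without PBS replicate 1 the adjusted p was 0.0155. Ifi35, which modulates the stability of signalling proteins, averaged 51.6 ± 6.31 RPM in PBS and 65.7 ± 10.9 RPM in DT, with a limma adjusted p of 0.158. Parp14, an enzyme that attaches ADP-ribose to proteins, averaged 23.0 ± 3.77 RPM in PBS and 19.2 ± 4.41 RPM in DT, with a limma adjusted p of 0.403.

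Levels of different genes can be compared only per length, here as RPM per kilobase of exon (GENCODE vM21). In PBS the order of mean levels ran from Ifi27l2a (219.8 ± 119.5 RPM per kilobase), Bst2 (30.7 ± 6.24) and Ifi35 (29.9 ± 3.65) down to Mx1 (0.569 ± 0.449) and Oas3 (0.559 ± 0.180). Bst2 and Ifi35 did not differ beyond their spread, nor did Mx1 and Oas3. In DT, Oas3 was at 6.26 ± 1.53 RPM per kilobase, which moved it from place 29 to place 17 of 29. Oasl2 moved from place 25 to place 13, with 0.788 ± 0.331 RPM per kilobase in PBS and 8.22 ± 1.71 in DT. The genes at the top in PBS stayed there: Ifi27l2a, Bst2 and Ifi35 held places 1 to 3 in both groups.

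Several members are neighbours in the genome, and neighbours did not always change alike. Starts of consecutive members lay within 200 kb of each other in 7 pairs (mm10, GENCODE vM21). Oasl2 (chromosome 5, 114896936 to 114912234) and Oasl1 (114923240 to 114937915) are adjacent on the plus strand. The ratio of Oasl2 to Oasl1 within a library was 0.171 to 0.503 in PBS and 2.92 to 6.91 in DT. Oas3 (chromosome 5, 120753098 to 120777661) and Oas1a (120896256 to 120907521) had a ratio of 0.158 to 0.314 in PBS and 0.954 to 1.32 in DT. For Oas2 over Oas3 the ranges were 0.150 to 2.13 and 0.469 to 0.698, so that neither gene gained on the other beyond the spread.

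Mx1 over Mx2 on chromosome 16 ran from 0.146 to 1.14 in PBS and from 1.54 to 3.09 in DT. Rsad2 (chromosome 12, 26442746 to 26456452) and Cmpk2 (26469204 to 26479837) lie on opposite strands, and their ratio overlapped between groups, with 0.179 to 0.259 in PBS and 0.235 to 1.11 in DT. In the Ifit locus on chromosome 19, Ifit3 over Ifit1 also overlapped, at 0.331 to 2.19 and 0.688 to 1.18, and Ifit2 over Ifit3 ran from 2.12 to 5.74 in PBS and from 0.895 to 2.16 in DT. These ratios are a description without a test.

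**Figure D3:**
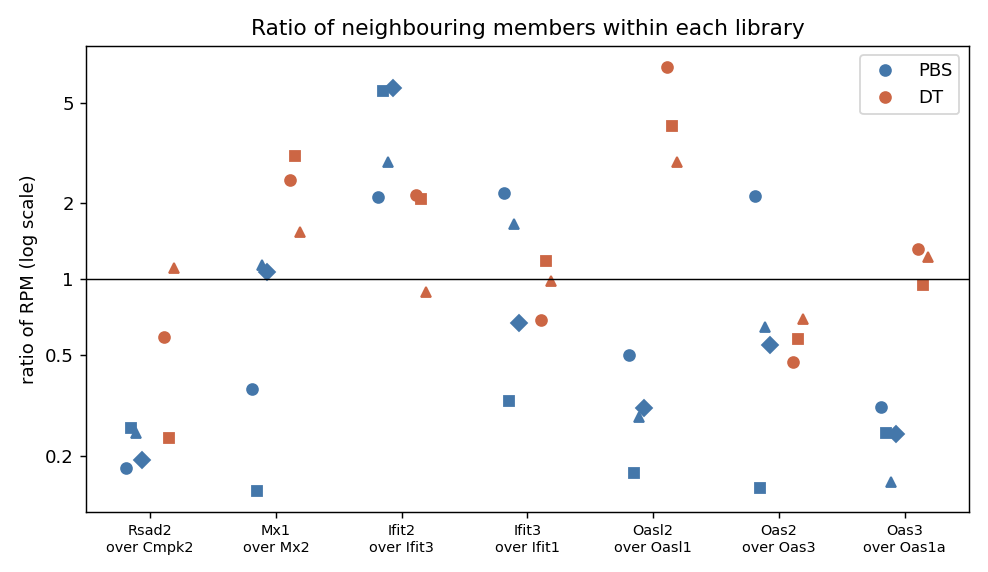
Ratio of RPM values of neighbouring members within each library (y axis, log scale) for 7 pairs (x axis), with PBS libraries in blue and DT libraries in orange and replicates 1 to 4 as circle, square, triangle and diamond. The groups are apart for Oasl2 over Oasl1 (at most 0.503 in PBS, at least 2.92 in DT), Oas3 over Oas1a and Mx1 over Mx2, and overlap for the other pairs.

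Most members had their highest DT value in the same library, while no PBS library stood out in this way. PBS replicates 1 to 4 were the highest PBS library for 7, 10, 2 and 10 members. DT replicate 3 was the highest DT library for 25 of 29 members and for 14 of the 15 that rose. It was the highest for 31.1% of all tested genes. In lists described below, it was the highest for 36 of 68 other interferon targets (52.9%), untested ones included. The same held for 4 of 10 receptor and JAK-STAT genes. DT replicate 1 was the lowest DT library for 19 of 29. Relative to the PBS mean, the median shift over the 29 members was 0.65, 0.89 and 1.24 in DT replicates 1, 2 and 3 and between -0.15 and 0.13 in the PBS libraries, on the log2(RPM + 1) scale. The same median over all tested genes was -0.22 in each DT library. Sensors had the largest median shift in every DT library, at 0.95, 1.18 and 1.44, and regulators the smallest, at 0.30, 0.51 and 0.52. Effectors were at 0.59, 0.91 and 0.81, so their median was highest in DT replicate 2.

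The monocyte and macrophage markers had their highest DT value in DT replicate 3 for 9 of 10 genes, and the neutrophil markers for 1 of 12. Genes of the other cell type lists were not ranked in this way. The summed monocyte and macrophage level was 7518, 7165 and 8966 RPM in DT replicates 1 to 3, and the summed neutrophil level 61975, 58184 and 59069 RPM. The endothelial sum (9.85, 11.7 and 16.7 RPM) and the classical dendritic sum (41.0, 54.8 and 65.3 RPM) were also highest in DT replicate 3. Sums of the T and NK cell, B-lineage, erythroid, plasmacytoid dendritic and megakaryocyte lists were highest in DT replicate 2. Oasl2, Oas2 and Ddx58 were highest among PBS in PBS replicate 1. This library also had the highest PBS sums of the monocyte and macrophage list (911 RPM) and the neutrophil list (4492 RPM). Its sums of the B-lineage (10337 RPM), T and NK cell (55.1 RPM) and classical dendritic (31.5 RPM) lists were the highest in PBS as well. Its erythroid sum was the lowest in PBS. It was the highest PBS library for 7 members and the lowest for 9. Their part in the order of the libraries was not tested. Leaving out PBS replicate 1 and DT replicate 3 together, a choice made after seeing the values, left 9 members that rose.

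**Figure D4:**
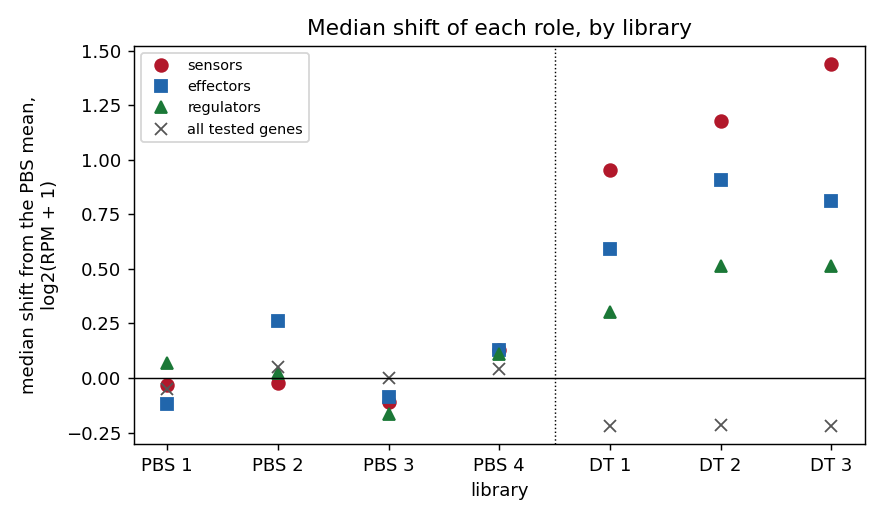
Median difference from the PBS mean on the log2(RPM + 1) scale (y axis) over 9 sensors, 12 effectors, 8 regulators and all 14100 tested genes, for each library (x axis). Sensors reach 1.44 in DT replicate 3, regulators stay between 0.30 and 0.52 in DT, and all tested genes lie at -0.22 in each DT library.

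The rest of the pathway was read from lists of genes that are not members. Among 21 interferon ligand genes, 0 reached the mean of 1 RPM needed for the test. The table lists 18 of them, Ifnb1 and all 13 Ifna genes included, at its lowest value in every library. Since all 13 mitochondrially encoded genes are listed at that value too, it does not show that these transcripts were absent. Ifng, the type II interferon, had 0.256 RPM in PBS replicate 4, the lowest listed value in the other PBS libraries, and 0.480, 0.285 and 1.46 RPM in DT replicates 1 to 3.

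Of 10 receptor and JAK-STAT genes, 6 rose and 0 fell. Ifnar2 went from 32.5 ± 6.11 to 53.1 ± 3.32 RPM (limma adjusted p = 0.0182), and its adjusted p was 0.0531, 0.0559 and 0.0812 without DT replicate 1, 2 or 3 and 0.0517 with the replicate number as a block. Ifnar1 was at 35 ± 4.56 and 34.9 ± 5.63 RPM (limma adjusted p = 0.982), Jak1 at 179 ± 17.0 and 191 ± 13.5 RPM (0.630) and Tyk2 at 24.2 ± 6.91 and 35.8 ± 8.13 RPM (0.121). Il10rb, a chain shared by the receptors of interferon lambda and interleukin-10, rose 2.27-fold. Ifngr2 rose 1.70-fold, and Ifnlr1, the other chain of the lambda receptor, went from 0.627 ± 0.299 to 6.89 ± 0.814 RPM (limma adjusted p = 0.000340). Ifnlr1 averaged under 1 RPM in PBS and met the filter through its DT values.

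Of 22 tested genes of the machinery that induces interferon, 7 rose and 1 fell. Myd88, the adaptor of Toll-like receptors, rose 3.08-fold and Ikbke, a kinase of Irf factors, 8.03-fold (limma adjusted p = 7.07e-05 and 0.000328). The RNA-sensing receptors Tlr7 and Tlr8 went from 0.876 ± 1.29 to 7.79 ± 2.21 RPM and from 0.215 ± 0.20 to 4.26 ± 0.719 RPM. Both averaged under 1 RPM in PBS and met the filter through their DT values. Negative feedback genes rose in 3 of 11 tested and fell in 1. Socs3, which blocks JAK kinases, went from 0.772 ± 1.21 to 13.2 ± 1.54 RPM, Nlrx1 rose 7.23-fold and Ptpn6, a phosphatase abundant in blood cells, 2.95-fold. Socs3 likewise met the filter through its DT values. Socs1, named after its values were seen, missed the filter and was not tested. It averaged 1.07 ± 0.520 RPM in PBS and 0.142 ± 0.0896 RPM in DT, with all DT libraries below all PBS libraries. Otud5 fell from 36.3 ± 8.64 to 20.6 ± 0.409 RPM (limma adjusted p = 0.0179), a call lost under median-ratio scaling (0.0772) and TMM scaling (0.0642) and without DT replicate 1 (0.0554), 2 (0.0564) or 3 (0.0672).

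Among 64 other tested interferon targets, 32 rose (50%) and 3 fell, with a median log2 change of 0.65. Some that rose averaged under 1 RPM in PBS and met the filter through their DT values. The 4 with the smallest p were Ifitm6, Slfn4, Ms4a4c and Ifitm1, which rose 30.5-fold, 24.0-fold, 13.1-fold and 11.6-fold, of which Ifitm6, Slfn4 and Ms4a4c are also known from myeloid cells. Ifitm6 went from 20.1 ± 1.11 RPM in PBS to 612 ± 42.3 RPM in DT. These ratios are above those of every member. The 3 that fell, named after their values were seen, were Pml, a nuclear body protein gene, and the RNA helicase genes Dhx36 and Ddx24, of which the helicases are not usually counted as interferon targets. Without DT replicate 3 the list had 21 rises and 0 falls.

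Plasmacytoid dendritic cells are a known source of type I interferon and share Bst2 with the members. Without Bst2, 4 of their 9 markers rose and 2 fell, all 6 named here after their values were seen. Siglech, a surface receptor of these cells, went from 3.69 ± 3.20 RPM in PBS to 40.9 ± 14.0 RPM in DT (11.1-fold, limma adjusted p = 0.00169). Ccr9 rose 8.74-fold and Runx2 4.01-fold, and Pacsin1 went from 0.0884 ± 0.142 to 2.47 ± 0.914 RPM. Pacsin1 met the filter through its DT values. Tcf4 and Spib fell, to ratios of 0.583 and 0.592, and Ly6d was at a ratio of 0.737 (limma adjusted p = 0.470). Spib, Ly6d and Tcf4 are also expressed by B-lineage cells, and any part of other cell types in the values of this list was not tested. These 3 are the most abundant of the list, which summed to 624 to 1082 RPM in PBS and 587 to 709 RPM in DT. Their part in the members' changes was not tested.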

How the data were processed

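RNA of 7 libraries (4 PBS, 3 DT) was measured. Per the labels' protocols, a SMARTer kit amplified the small RNA input before sequencing. STAR 2.5.3a, Partek and mm10 are named per the submitters' processing notes, while annotation and counting settings were not given in the sources used here. Values deposited by the authors are named as FPKM but behave as RPM with 0.0001 added: the most frequent low value of each library was shared by 1029 to 1206 genes, whose gene lengths ran from at most 276 bases (percentile 10) to at least 105030 bases (percentile 90). Only 61% to 62.6% of the low values, those not above 20 steps, lay within 0.02 steps of a whole number, which did not recover reads and left a count model out. The design had assumed a length-normalized unit, and its test was kept.

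Genes averaging 1 RPM or more were tested as log2(RPM + 1) with limma 3.58.1 in R 4.3.3 (intensity trend, two-sided, Benjamini-Hochberg at 0.05). The mean was taken over all 7 libraries, so a gene low in one group could enter through the other. Alternatives covered the pseudocount, filter, scaling (quantile, median-ratio, trimmed mean of M-values or TMM), each library left out, trend, a replicate block, sample weights and a minimum fold. The block takes PBS replicate 4 out of the comparison, so its log2 changes equal those without that library and it is not a separate check of them. Added after seeing the data were voom on estimated reads and leaving out PBS replicate 1 with DT replicate 3. All members are named, with up to 4 genes past the threshold per pathway list by smallest p and the 2 most abundant genes of a cell type list. The endothelial genes are listed in full, and the genes sharing exons or sequence with members, Ifng, the rank and neighbour descriptions and the motif windows shown were chosen with values known. Members and lists were chosen with earlier results of these data known.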

Additional observations from a re-analysis of the deposited data

Results flagged for a closer look

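In a group of 4 PBS libraries, a gap between 1 library and the nearest other was set against the whole range for each of the 29 members, and 2 were marked by Dixon's 95% limit of 0.829. Chance marks about 1 group in 20. Oasl2 was at 8.16 RPM in PBS replicate 1 and at 3.73 to 4.38 RPM in the other PBS libraries. Trim30a was at 115 RPM in PBS replicate 1 and at 71.5 to 78.7 RPM in the others. Without PBS replicate 1, Trim30a passed the threshold (limma adjusted p = 0.0155) and Oasl2 kept its call.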

How the results depend on the processing

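No member fell under any setting run. The count of members that rose (15) was 9 without a filter or without PBS replicate 1 and DT replicate 3 together, and 8 (without DT replicate 3) to 16 with a library left out. Effectors that rose (5) numbered 2 without a filter, 8 under median-ratio or TMM scaling, 1 with those 2 libraries left out, and 1 to 7 with a library left out. Regulators (3) numbered 5 under either scaling. Receptor genes (6) numbered 2 with a fold minimum, rising feedback genes (3) 5 under either scaling, and other targets (32) 21 to 31 with a library left out. Genes that fell overall (2622) numbered 1689 without a filter, 1261 and 1400 under median-ratio and TMM scaling, 1050 with a fold minimum, and 1208 to 3628 with a library left out. Falls in the induction list were 0 under pseudocount 5, quantile, median-ratio or TMM scaling, no trend, the replicate block, a fold minimum and the 2 libraries left out, and 0 to 1 with a library left out. Feedback falls were 2 without a filter, 0 under either scaling or a fold minimum, and 0 to 1 with a library left out. Falls among other targets were 1 without a filter or under quantile scaling, 0 under either scaling, no trend, the replicate block or a fold minimum, and 0 to 5 with a library left out. Rises made up 41.9% of calls, 65.5% under median-ratio, 62.3% under TMM, 51.4% without a filter, 58.8% with a fold minimum and 51.1% with the block. Fewer samples or more genes tested lower some counts by construction, and the cause of the other differences was not tested.

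Signs turned only for differences that missed the threshold. Leaving out PBS replicate 1 and DT replicate 3 gave log2 changes of -0.077 for Ifih1, -0.014 for Mx2, -0.13 for Ifi44 and -0.15 for Xaf1. Ifi44 was at -0.046 with sample weights, and Ifi27l2a at 0.078 and 0.046 under median-ratio and TMM scaling. Ifnar1 was at 0.078, 0.23, 0.20, 0.039 and 0.0012 under quantile, median-ratio and TMM scaling, the block and voom. With a library left out the ranges were -0.77 to 0.072 for Oasl1, -0.18 to 0.31 for Mx2, -0.21 to 0.52 for Ifi44, -0.40 to 0.15 for Ifi27l2a, -0.18 to 0.23 for Xaf1 and -0.10 to 0.13 for Ifnar1. With the replicate block 13 members rose, Mx2 was at -0.079, and 1574 genes fell overall. Same-numbered libraries correlated at 0.042, 0.049 and 0.010 in their deviations from group means, too weakly for the number to be read as a pairing. DT replicates 1 and 2 correlated best with the PBS library of their own number, and DT replicate 3 with PBS replicate 4 (0.048).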
